A study of Mus musculus with 27 samples.

Results

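The level of 6 genes was followed across the colon of Foxa1/2-deficient and control mice, namely Vsig2, Nat8f3, Ggh, Suox, Akr1c14 and Khdrbs3. They were selected on these data, as 6 of the largest or most certain decreases in deficient distal colon outside transport and hormone genes, out of 35975 genes with summed counts. Their distal difference between the genotypes is therefore given as a description with no test, and only their difference in proximal colon, which the choice did not use, was tested. The data were 27 poly(A) RNA sequencing libraries from short pieces of whole colon of 14 mice of mixed background, of which 13 gave both segments.

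Deficient mice, 9 to 13 months old, carried Villin1-Cre with loxP-flanked alleles of both genes (Villin1-Cre; Foxa1lox/lox; Foxa2lox/lox) and gave 7 proximal and 7 distal libraries. Control mice, 9 to 18 months old, gave 7 proximal and 6 distal libraries. Of these control mice, 5 had the floxed alleles without Cre (Foxa1lox/lox; Foxa2lox/lox), replicate 1 was Villin1-Cre; Foxa1lox/wt; Foxa2lox/wt and replicate 6 was Villin1-Cre; Foxa1lox/lox; Foxa2lox/wt. Every mouse of the study thus had at least 1 floxed allele of each gene. The control mice were labelled male, as were 5 of the 7 deficient mice. The Villin1 promoter drives Cre in the intestinal epithelium, so muscle, immune and stromal cells of the same tissue piece were not targeted.

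Foxa1 and Foxa2 are forkhead transcription factors of the gut epithelium that can bind their sites in closed chromatin and share a recognition motif close to TGTTTAC. The 6 genes belong to different pathways. Vsig2 encodes an immunoglobulin-domain membrane protein of the CTX adhesion family, and Nat8f3 an endoplasmic reticulum N-acetyltransferase whose human relative NAT8 completes mercapturates, the excreted form of glutathione conjugates. Ggh encodes the lysosomal hydrolase that trims the glutamate tail of stored folates, and Suox the mitochondrial molybdenum enzyme that oxidises sulfite to sulfate. Akr1c14 encodes an aldo-keto reductase that reduces steroids at the 3-alpha position, and Khdrbs3 a STAR family RNA-binding protein that regulates splicing.

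RefSeq promoter windows (GRCm38.p6) were found for 3 of the 6 genes and are shown because Foxa proteins act at such regulatory DNA. The stretches run 5′ to 3′ on the gene's strand and stop before the first exonic base, by GENCODE, inside the window. Capitals mark CG dinucleotides. The Nat8f3 stretch is chr6:85765755-85765994, minus strand, that of Suox chr10:128674074-128674168, minus strand, and that of Akr1c14 chr13:4059341-4059540, plus strand. The Akr1c14 window lies inside the gene, since its longest GENCODE transcript starts at 4049011 and has exons upstream of the window.
Nat8f3: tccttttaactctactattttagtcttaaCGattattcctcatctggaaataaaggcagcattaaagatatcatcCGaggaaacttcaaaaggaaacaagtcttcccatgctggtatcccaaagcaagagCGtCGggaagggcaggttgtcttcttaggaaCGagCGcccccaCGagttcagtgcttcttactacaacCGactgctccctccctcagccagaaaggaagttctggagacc
Suox: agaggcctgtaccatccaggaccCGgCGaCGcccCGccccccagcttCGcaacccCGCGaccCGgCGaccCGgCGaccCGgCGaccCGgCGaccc
Akr1c14: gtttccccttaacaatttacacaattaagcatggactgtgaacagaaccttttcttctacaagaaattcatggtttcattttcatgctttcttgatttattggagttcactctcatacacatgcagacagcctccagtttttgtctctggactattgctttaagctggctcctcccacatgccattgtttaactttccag

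The 3 windows differed widely in composition. Over the full 250 bases before the RefSeq start, Suox held 35 CG dinucleotides at 74.4% GC, Nat8f3 held 8 at 47.2% GC and Akr1c14 held 1 at 38.8% GC, beside medians of 6 CG dinucleotides and 52.4% GC over 32851 promoter windows. These windows include exonic bases. Only the first 95 bases of the Suox window precede the first exonic base inside it, against 240 for Nat8f3 and 200 for Akr1c14. Those 95 bases held 15 CG dinucleotides at 78.9% GC. The printed Suox stretch ends in a run of repeated ccCGgCGa units. The motifs TGTTTAC and TATTTAC, searched on both strands, were in none of the 3 windows of 250 bases. Either motif occurred in 5.8% of all windows, TGTTTAC in 3.2% and TATTTAC in 2.7%.

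The targeted genes were checked first. Levels are given as CPM, counts scaled to library size with TMM factors over all libraries. The 7 deficient mice had Foxa1 at 10.1 to 14.5 CPM in proximal colon, against 50.9 to 69.4 CPM in 6 of the 7 control mice. Their distal pieces had 7.21 to 10.5 CPM, against 42.4 to 80.8 CPM in 5 of the 6 control mice. The remaining control mouse, replicate 6, whose Foxa1 alleles are both floxed in the presence of Cre, had 13.9 CPM (proximal) and 7.6 CPM (distal), both inside the range of the deficient mice. Foxa2 in proximal colon was at 1.23 to 1.75 CPM among deficient mice, against 6.05 to 15.7 CPM among control mice, and in distal colon at 0.326 to 1.37 CPM among deficient mice, against 15.5 to 30.4 CPM among control mice. Control replicate 6 had kept Foxa2 (15.7 CPM proximal, 23.8 CPM distal). Control replicate 1, the other control mouse with Cre, had kept both genes.

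Pan-epithelial markers were read in every library, as the sums below show. Counted over all libraries of a group together, 0 of the 12 were at 0 counts in any group. Those markers summed to 15200 to 22000 CPM over the proximal libraries of deficient mice, against 13800 to 21200 CPM over those of control mice. The distal sums were 15400 to 26100 CPM for deficient mice, against 19600 to 31000 CPM for control mice. By edgeR 1 of the 12 was higher in proximal colon, and 1 was lower and 1 higher in distal colon. For this and the lists below, the shares over all genes were 6.17% lower and 5.52% higher in proximal colon. In distal colon they were 3.37% lower and 2.71% higher. Absorptive colonocyte markers summed to 16400 to 24400 CPM (deficient) against 23900 to 35500 CPM (control) in proximal colon, with 4 of 10 lower and 1 higher. Their distal sums were 8550 to 19600 CPM (deficient) against 14800 to 25900 CPM (control), with 2 of 10 called, both lower. Goblet cell markers summed to 3250 to 7790 CPM (deficient) against 6690 to 9980 CPM (control) in proximal colon, where 4 of 10 were called lower, and to 13800 to 26600 CPM (deficient) against 25600 to 37400 CPM (control) in distal colon, where 1 of 10 was. Enteroendocrine markers were called for 2 lower and 2 higher of 10 in proximal colon and for 6 of 9 in distal colon, all higher. Tuft cell markers were higher for 4 of 8 in proximal colon, 1 of 8 fibroblast markers was higher and 1 of 8 T cell markers lower there. In distal colon the tuft, fibroblast and T cell lists had 0 of 8 markers called each by edgeR. At an unadjusted p under 0.05 these were 2 tuft, 2 fibroblast and 0 T cell markers, DESeq2 called 1 tuft marker and limma 0.

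The squamous, smooth muscle, enteric neuron and glia, B and plasma cell, and macrophage lists together had 0 of 40 markers called by edgeR in proximal colon (6 at an unadjusted p under 0.05, 2 by DESeq2, 0 by limma), and 0 of 40 in distal colon (9 unadjusted, 3 by DESeq2, 0 by limma). Of those 3 DESeq2 calls, 2 were among the 4 squamous markers tested, whose list summed to 4.66, 12.2 and 15.8 CPM (lowest, median, highest) in distal deficient and 4.96, 5.44 and 11.8 CPM in distal control libraries. The part of squamous epithelium in the distal values was not tested. The part of colonocytes and goblet cells in the results was not tested, and in whole tissue fewer cells of a type and less RNA per cell cannot be told apart.

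In distal colon all 6 genes were lower in deficient mice, by 2.89-fold for Khdrbs3 up to 21.6-fold for Vsig2, as their selection requires. The order at the top depended on the setting: with a transcript-length offset the log2 difference was -3.82 for Vsig2 and -4.1 for Nat8f3, and with the replicate block -3.97 for Vsig2 and -4.06 for Nat8f3. The deficient and control libraries did not overlap for 5 of the 6, the exception being Vsig2. Over all genes tested in distal colon, 3.37% were called lower in deficient mice, 6.08% in either direction, and 2.07% had every deficient library below every control library. By fold the genes ranked from 10 (Vsig2) to 130 (Khdrbs3) among the 541 called decreases, and by p from 6 (Suox) to 138 (Vsig2) among all decreases. The choice fixed these values, and nothing is read from them.

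In proximal colon, which the choice did not use, 4 of the 6 genes fell: Vsig2, Ggh, Akr1c14 and Khdrbs3 (edgeR quasi-likelihood test with Benjamini-Hochberg adjustment over all genes). These libraries are not independent of the distal ones, since 13 of the 14 mice gave both segments. Nat8f3 and Suox did not pass. Over all 16787 genes tested there, 6.17% were called lower in deficient mice and 11.7% in either direction. Only Ggh and Khdrbs3 had every deficient library below every control library, a pattern shown by 3.05% of the genes. All 6 members passed the filter on low counts in both segments, and the median log2 fold change of all genes was 0.01 in each.

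**Figure D1:**
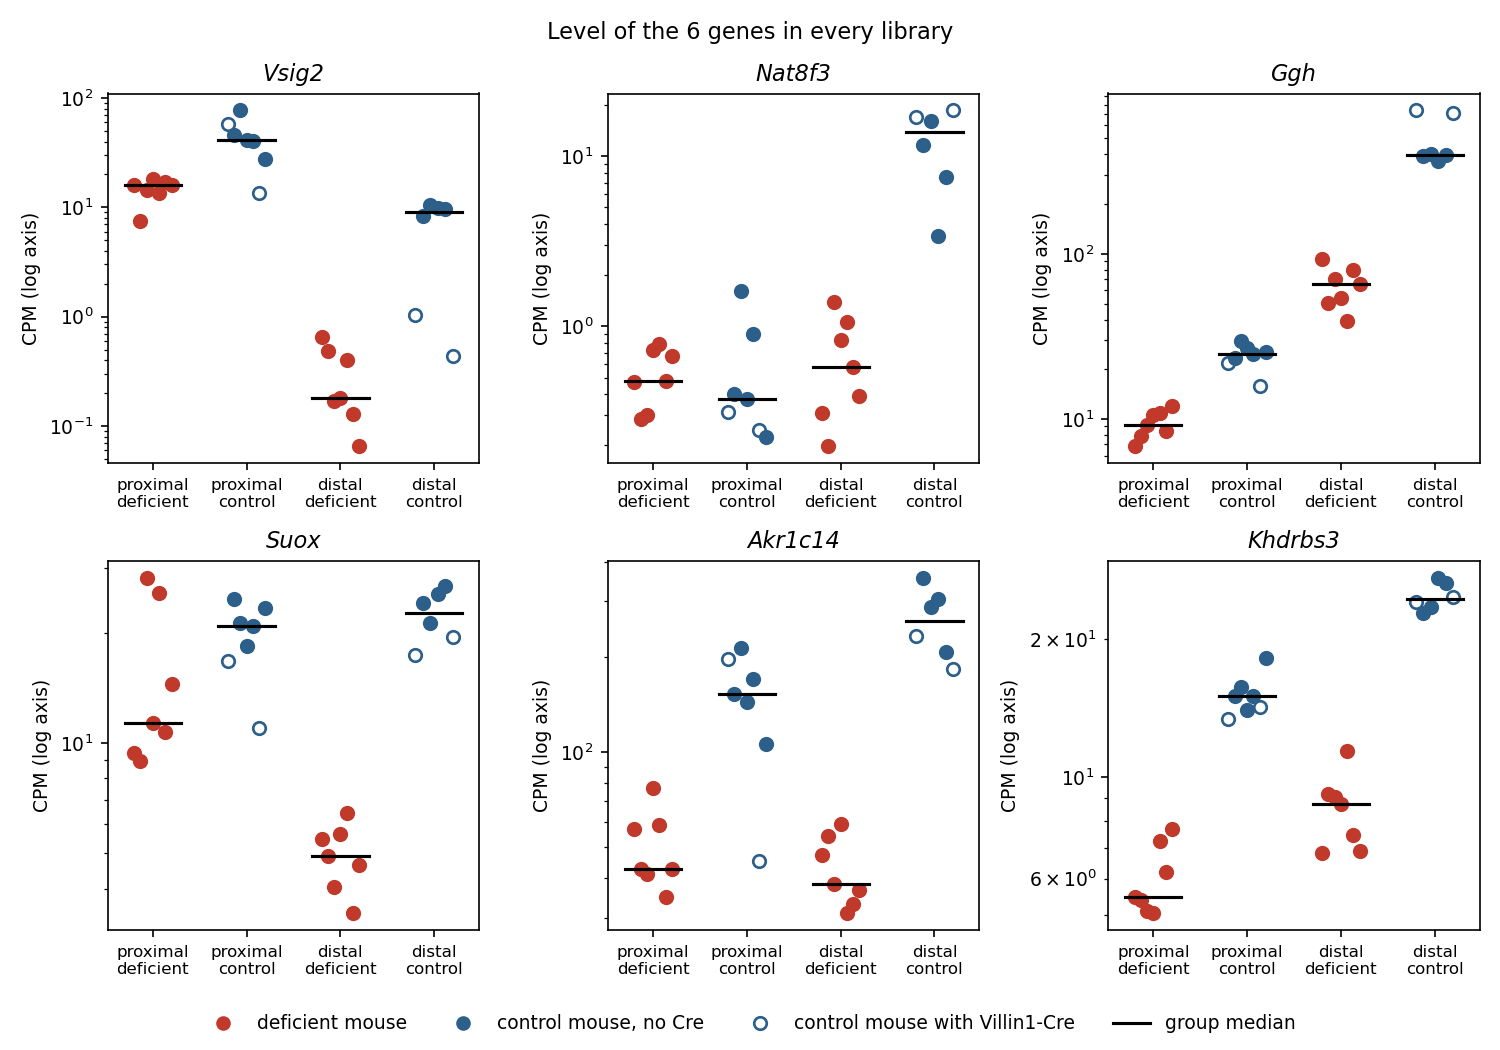
Level of each gene in every library in CPM on a log axis, by segment and genotype, with deficient mice in red, control mice without Cre in filled blue, control mice with Villin1-Cre as open blue circles and the group median as a bar. Distal Vsig2 is at 1.04 and 0.436 CPM in the control mice with Cre and at 8.36 to 10.5 CPM in those without, and proximal Suox is spread from 8.92 to 28.3 CPM among deficient mice.

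Vsig2 (ENSMUSG00000001943.8, chromosome 9, 37539255 to 37544205, plus strand, GRCm38) was mainly a proximal gene. Proximal libraries held a lowest, median and highest level of 7.56, 15.9 and 18.2 CPM in deficient mice and of 13.6, 41.6 and 77.2 CPM in control mice. The only control library inside the deficient range was that of replicate 6. Vsig2 fell 2.95-fold in proximal colon (log2 fold change -1.56, SE 0.29, adjusted p = 0.00167, edgeR). In distal colon it was at 0.0652, 0.179 and 0.653 CPM (lowest, median, highest) in deficient mice and at 0.436, 9.02 and 10.5 CPM in control mice, a log2 difference of -4.43 (SE 0.72). The 7 distal deficient libraries held between 1 and 21 estimated counts of the gene, so the size of the distal fold is imprecise.

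The distal control libraries of Vsig2 with Cre were below those without. Both mice with Cre carry floxed alleles that Cre can delete, so Cre and allele dose cannot be told apart, here and for the genes below. The 4 mice without Cre were at 8.36 to 10.5 CPM, whereas replicate 1, with 1 floxed allele of each gene, was at 1.04 CPM and replicate 6 at 0.436 CPM. These are 10.8% and 4.52% of the mean without Cre, where the deficient mean is 3.08%. In proximal colon replicate 1 was at 58.1 CPM, within the 27.9 to 77.2 CPM of the mice without Cre, and replicate 6 was at 13.6 CPM. Against control mice without Cre only, the distal log2 difference was -4.96 and the proximal one -1.67 (adjusted p = 0.000265, edgeR).

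Nat8f3 (ENSMUSG00000051262.9, chromosome 6, 85732513 to 85765754, minus strand) was a distal gene with almost no proximal expression. Distal levels were 0.198, 0.581 and 1.4 CPM (lowest, median, highest) in deficient mice and 3.42, 13.9 and 18.6 CPM in control mice, a log2 difference of -4.15 (SE 0.48). Control replicates 1 and 6, with Cre, were at 17 and 18.6 CPM, 176% and 193% of the mean without Cre, and against control mice without Cre only the difference was -3.81. The groups did not overlap, and the highest distal deficient library was below the highest proximal control library (1.62 CPM). Proximal levels were 0.288, 0.477 and 0.787 CPM in deficient and 0.224, 0.374 and 1.62 CPM in control mice. These rest on 14 to 40 estimated counts per deficient and 9 to 69 per control library, and the groups overlapped (log2 fold change -0.12, SE 0.43, adjusted p = 0.917, edgeR). The sign of this value turned without control replicate 3 (0.37) and without control replicate 5 (0.01), and the coefficient of variation among control libraries was 87.5%.

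Counts of Nat8f3 are uncertain in one respect. Its protein, translated from the GENCODE coding sequence, is 99.1% identical to that of Nat8f7 over 227 aligned residues and 98.7% identical to that of Nat8f6 over 226, and both genes lie in the same cluster on chromosome 6. The quantification divides reads between such copies by a model. Counted as one, the 3 genes summed to 0.254, 1.06 and 1.63 CPM in distal deficient and 4.99, 18 and 26.5 CPM in distal control libraries, with a log2 difference of -4.27. The summed proximal value was -0.27 (adjusted p = 0.78, edgeR), so both values kept their direction when the copies were counted together.

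Of the relatives of Nat8f3 in the same cluster, 3 were called lower in distal colon and 2 of these were called higher in proximal colon. Over all genes tested, 3.37% were called lower in distal and 5.52% higher in proximal colon. In the same cluster Nat8f2 (log2 fold change -0.38, adjusted p = 0.73, edgeR) and Nat8f1 (0, adjusted p = 0.999) were not called in distal colon. Nat8f1 was not called in proximal colon either (0.96, adjusted p = 0.526). The 3 relatives below are named because they were called. Nat8f7 was at 0.122 ± 0.174 CPM in distal deficient (n = 7) and 4.11 ± 1.82 CPM in distal control mice (n = 6, SD), a log2 difference of -4.94 (SE 0.73). Its reads are shared with Nat8f3 as described, and Nat8f3 was chosen on this contrast, so no test is read for Nat8f7. Distal deficient libraries held 0 to 14 estimated counts of Nat8f7. Nat8f5, whose protein is 53.9% identical to Nat8f3 and whose gene overlaps Nat8f6 on the same strand, so that its counts are uncertain too, fell in distal colon (0.374 ± 0.257 CPM deficient and 1.62 ± 0.865 CPM control, log2 fold change -2.14, SE 0.48, adjusted p = 0.015, not called against control mice without Cre only) and rose in proximal colon (0.457 ± 0.0933 CPM deficient and 0.0908 ± 0.0539 CPM control, n = 7 each, log2 fold change 2.31, SE 0.36, adjusted p = 0.000408). Nat8f4, named after its values were seen, fell in distal colon (71.4 ± 28.8 CPM deficient and 172 ± 101 CPM control, log2 fold change -1.26, SE 0.33, adjusted p = 0.0335) and rose in proximal colon (10 ± 3.17 CPM deficient and 4.6 ± 3.57 CPM control, log2 fold change 1.15, SE 0.36, adjusted p = 0.0483). Both Nat8f4 calls were marginal: leaving out 1 library at a time kept the distal call in 6 of 13 refits (log2 fold change -1.43 to -0.92) and the proximal call in 2 of 14 (1.01 to 1.6). Proximal control replicate 6 was at 12.1 CPM, inside the 6.51 to 15 CPM of deficient mice, with the other control mice at 1.89 to 5.82 CPM. These tests are edgeR's, and the difference between segments was not tested. Proximal Nat8f5 rests on 0 to 7 estimated counts per control and 14 to 28 per deficient library, so its fold is imprecise. Distal Nat8f4 was highest in the control mice with Cre, at 223 CPM in replicate 1 and 357 CPM in replicate 6, against 104 to 125 CPM without Cre, and against the control mice without Cre only the distal difference was -0.67 and not called (adjusted p = 0.208, edgeR).

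**Figure D2:**
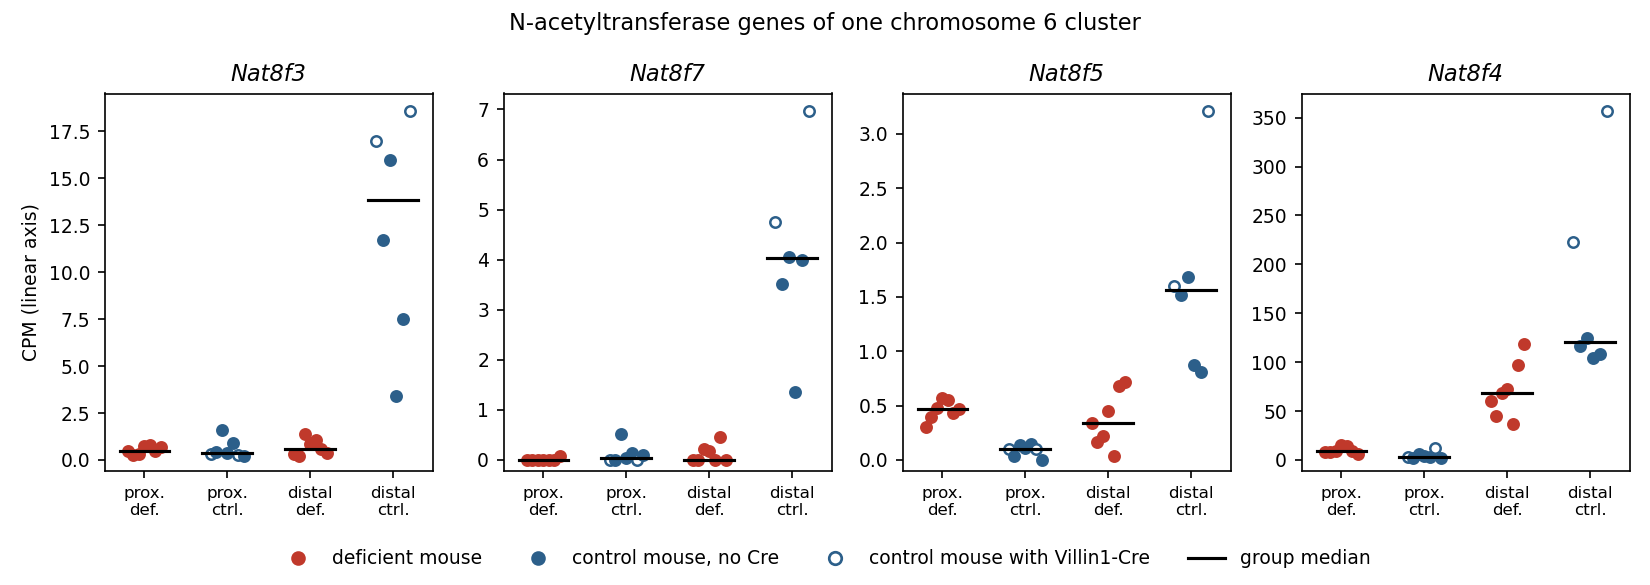
Level in CPM on linear axes of Nat8f3 and of 3 relatives of its chromosome 6 cluster in every library, by segment and genotype (def., deficient; ctrl., control), with symbols as in the plot of the 6 genes and bars at the group median. The medians of all 4 genes are lower in distal deficient than in distal control libraries, and the medians of Nat8f5 and Nat8f4 are higher in proximal deficient than in proximal control libraries.

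Of the whole list of Nat8 family and mercapturate pathway genes, 3 of 20 tested, Nat8f7 among them, were called lower and 2 higher in distal colon (median log2 fold change -0.05), and 6 of 18 in proximal colon, all higher (median 0.21). Among all genes, 3.37% were called lower and 2.71% higher in distal colon, and 6.17% lower and 5.52% higher in proximal colon. The higher ones included Gclm, a subunit of the first enzyme of glutathione synthesis, at 171 ± 21.8 CPM in proximal deficient and 118 ± 18.7 CPM in proximal control mice (log2 fold change 0.55, SE 0.1, adjusted p = 0.00195, edgeR). Gclm also rose in distal colon (log2 fold change 0.52, SE 0.14, adjusted p = 0.0451, edgeR), a call kept in 4 of 13 refits that left out 1 library. This distal call was also lost with RLE size factors, a transcript-length offset and limma on the deposited log2 CPM. Ggt1, the transferase that opens glutathione conjugates and likewise named after its values were seen, rose in both segments, to 147 ± 41.3 CPM in proximal deficient mice against 27.1 ± 37.1 CPM in proximal controls and to 53 ± 32.6 CPM in distal deficient mice against 3.76 ± 4.64 CPM in distal controls (adjusted p = 0.00591 proximal and 0.00638 distal, edgeR). The proximal groups overlapped, since control replicate 6 was at 111 CPM and the lowest deficient mouse at 101 CPM, while the other control mice were at 6.08 to 18.6 CPM. Without control replicate 6 the log2 fold change of Ggt1 was 3.5 in place of 2.47 in proximal colon and 4.7 in place of 3.86 in distal colon, where that mouse was at 11.9 CPM. With deficient replicates 1, 2, 4 and 6 only, the proximal rise of Ggt1 was not called.

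Ggh (ENSMUSG00000073987.4, chromosome 4, 20042052 to 20066750, plus strand) was the most abundant of the 6 in distal colon per transcript length, at 43.4 ± 9.22 TPM in deficient and 311 ± 84.1 TPM in control mice (SD, n = 7 and 6). In CPM its distal levels were 39.4, 65.4 and 92.6 (lowest, median, highest) in deficient mice and 365, 400 and 741 in control mice, a log2 difference of -2.95 (SE 0.23). Its proximal levels were 6.83, 9.14 and 12 CPM in deficient mice and 15.8, 24.9 and 29.6 CPM in control mice. The groups were apart in both segments. In proximal colon Ggh fell 2.53-fold (log2 fold change -1.34, SE 0.14, adjusted p = 1.12e-05, edgeR).

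Distal Ggh was high in the same control mice in which distal Vsig2 was low. Replicates 1 and 6, both with Cre, were at 741 and 711 CPM, which is 191% and 183% of the mean of the 4 mice without Cre (389 ± 16.6 CPM, SD). In proximal colon they were at 21.9 and 15.8 CPM, under the 23.4 to 29.6 CPM of the 5 mice without Cre. Without these mice the distal log2 difference was -2.59. Among folate uptake and one-carbon enzymes 2 of 21 tested were called lower and 2 higher in proximal colon, and 1 of 21, which was higher, in distal colon (median log2 fold changes -0.1 and 0.17). The shares over all genes were 6.17% lower and 5.52% higher in proximal colon, and 2.71% higher in distal colon. Folr1, a folate receptor, rose in proximal colon at a low level (1.33 ± 0.524 CPM in deficient and 0.482 ± 0.198 CPM in control mice, log2 fold change 1.49, SE 0.29, adjusted p = 0.00273, edgeR). This proximal call was lost with deficient replicates 1, 2, 4 and 6 only. Aldh1l1, which oxidises formyl-tetrahydrofolate, fell there (10.5 ± 4.83 CPM deficient and 23.4 ± 5.83 CPM control, log2 fold change -1.14, SE 0.23, adjusted p = 0.00313), as did the mitochondrial enzyme Mthfd2 (9.82 ± 0.798 CPM deficient and 14.2 ± 2.81 CPM control, log2 fold change -0.52, SE 0.11, adjusted p = 0.00471).

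Suox (ENSMUSG00000049858.8, chromosome 10, 128669894 to 128674073, minus strand) was at a similar level in both segments of control mice. In distal colon it was at 3.42, 4.91 and 6.44 CPM (lowest, median, highest) in deficient and 17.4, 22.7 and 26.9 CPM in control mice, with no overlap and a log2 difference of -2.17 (SE 0.16). In proximal colon it was at 8.92, 11.3 and 28.3 CPM in deficient and 11, 20.9 and 24.7 CPM in control mice, the lowest control value being that of replicate 6. This difference did not pass (log2 fold change -0.31, SE 0.27, adjusted p = 0.568, edgeR).

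The deficient mice were spread in proximal Suox. Replicates 3 and 5 were at 28.3 and 25.7 CPM, replicate 7 at 14.5 CPM, and the other 4 at 8.92 to 11.3 CPM. Replicate 7 was thus nearer to those 4 than to replicates 3 and 5. In the libraries of replicates 3, 5 and 7 the Y-linked Ddx3y was at 0.0216 to 0.617 CPM, against 33.3 to 76 CPM in the other 21 libraries of the study. The grouping of these 3 mice follows Ddx3y and not a gap in Suox. Replicates 5 and 7 are labelled female and replicate 3 male. With the mice labelled male only, replicate 3 included, the proximal difference of Suox did not pass either (-0.49, adjusted p = 0.353, edgeR). In distal colon the same 3 mice were at 4.04 to 6.44 CPM and the other 4 at 3.42 to 5.64 CPM, and these ranges overlapped. The part of sex in the proximal values was not tested, since no control mouse had low Ddx3y.

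Of the sulfur oxidation and molybdenum cofactor genes, 2 of 22 tested were called lower and 3 higher in proximal colon, and 1 of 20 lower and 2 higher in distal colon (median log2 fold changes 0.01 and -0.04). Of all genes, 6.17% were lower and 5.52% higher in proximal colon, and 3.37% lower and 2.71% higher in distal colon. Ethe1, the persulfide dioxygenase that yields the sulfite Suox oxidises, fell in both segments. It was at 253 ± 33.4 CPM in proximal deficient and 555 ± 111 CPM in proximal control mice (log2 fold change -1.11, SE 0.13, adjusted p = 1.83e-05, edgeR), and at 129 ± 66.2 CPM in distal deficient and 439 ± 124 CPM in distal control mice (-1.76, SE 0.29, adjusted p = 0.0019). Cbs, which makes cystathionine from homocysteine, fell in proximal colon (19.2 ± 4.39 CPM deficient and 65.7 ± 17.4 CPM control, log2 fold change -1.76, SE 0.19, adjusted p = 1.1e-05, edgeR). Mocos, which sulfurates the cofactor of other molybdenum enzymes, rose there (25.4 ± 2.19 CPM deficient and 16.8 ± 4.29 CPM control, log2 fold change 0.62, SE 0.13, adjusted p = 0.0037).

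Akr1c14 (ENSMUSG00000033715.15, chromosome 13, 4049011 to 4090688, plus strand) had levels of 30.9, 38.3 and 59.4 CPM (lowest, median, highest) in distal deficient and 184, 260 and 357 CPM in distal control libraries. The groups did not overlap, with a log2 difference of -2.61 (SE 0.2). Proximal levels were 34.8, 42.7 and 76.9 CPM in deficient and 45.3, 153 and 214 CPM in control mice. The lowest control value was again that of replicate 6, which lay inside the deficient range, and the other 6 control libraries were at 106 CPM or more. In proximal colon Akr1c14 fell 2.87-fold (log2 fold change -1.52, SE 0.27, adjusted p = 0.00114, edgeR). Its main transcripts kept their proportions in distal colon, Akr1c14-201 holding 65.1% of the gene's estimated counts in deficient and 64.5% in control mice.

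The closest relatives of Akr1c14 by protein are Akr1c6 (72.8% identical over 323 residues), with at most 2 estimated counts in any library, and Akr1c20. Akr1c18, a neighbour on chromosome 13 that inactivates progesterone and is 70% identical, rose in proximal colon (55.9 ± 11.7 CPM in deficient and 14.3 ± 8.39 CPM in control mice, log2 fold change 1.99, SE 0.28, adjusted p = 0.000144, edgeR), where Akr1c14 fell. Akr1c21, also on chromosome 13 and 70.3% identical, fell there at a low level (0.255 ± 0.0906 CPM deficient and 0.653 ± 0.365 CPM control, -1.34, SE 0.35, adjusted p = 0.0186, edgeR). Akr1c12, Akr1c13 and Akr1c19 of that chromosome were not called in proximal colon. The highest proximal control value of Akr1c18, 31.8 CPM, was that of replicate 6, below all deficient libraries (41.9 CPM or more). In distal colon Akr1c18 was at 4.87 ± 2.58 CPM deficient and 2.14 ± 1.27 CPM control and did not pass (adjusted p = 0.167). Hsd17b2, which oxidises estradiol and testosterone, fell in proximal colon (86.2 ± 11.4 CPM deficient and 156 ± 37.4 CPM control, log2 fold change -0.84, SE 0.14, adjusted p = 0.000677) and in distal colon (103 ± 21.9 CPM deficient and 150 ± 22.2 CPM control, -0.54, SE 0.14, adjusted p = 0.0328, called in 7 of 13 refits without 1 library). The distal call was also lost with a transcript-length offset, in mice labelled male only and against control mice without Cre only. Hsd17b11 rose in proximal colon (384 ± 78.9 CPM deficient and 219 ± 20.5 CPM control, 0.83, SE 0.12, adjusted p = 0.000254). Over the list of aldo-keto reductases and hydroxysteroid dehydrogenases, 3 of 22 tested were lower and 3 higher in proximal colon, and 3 of 20 in distal colon, all lower (median log2 fold changes 0.1 and -0.32). The shares over all genes were 6.17% lower and 5.52% higher in proximal colon, and 3.37% lower in distal colon.

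Khdrbs3 (ENSMUSG00000022332.8, chromosome 15, 68928420 to 69101211, plus strand) had the lowest coefficient of variation of the 6 genes in each of the 4 groups, 6.85% to 19.1%. Distal levels were 6.81, 8.74 and 11.4 CPM (lowest, median, highest) in deficient and 22.8, 24.4 and 27.2 CPM in control mice, a log2 difference of -1.53 (SE 0.12). Proximal levels were 5.04, 5.48 and 7.7 CPM in deficient and 13.4, 15 and 18.2 CPM in control mice. The groups were apart in both segments, and in proximal colon the gene fell 2.47-fold (log2 fold change -1.31, SE 0.11, adjusted p = 1.77e-06, edgeR). Its control libraries with Cre were close to those without. Replicates 1 and 6 were at 86.1% and 91.1% of the mean without Cre in proximal colon and at 96.5% and 98.7% of it in distal colon.

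By edgeR no relative of Khdrbs3 was called. Khdrbs2, with 67.3% protein identity, was at 1.75 ± 0.398 CPM in proximal deficient and 1.74 ± 0.27 CPM in proximal control mice (log2 fold change 0.02, SE 0.16, adjusted p = 0.961, edgeR). Khdrbs1 was at 98.3 ± 5.01 CPM in distal deficient and 99.6 ± 9.32 CPM in distal control mice (-0.01, SE 0.07, adjusted p = 0.968). Of the STAR family and epithelial splicing regulators tested, 0 of 20 were called by edgeR in proximal colon (2 at an unadjusted p under 0.05, 1 by DESeq2, 0 by limma) and 0 of 19 in distal colon (1 unadjusted, 0 by DESeq2, 0 by limma). Of all genes, edgeR called 11.7% in proximal and 6.08% in distal colon, in either direction. The transcript Khdrbs3-206 held 26% of the gene's counts in distal deficient and 25.7% in distal control mice, against 4.7% in proximal deficient and 0.94% in proximal control mice. In the deposited values effective lengths follow one fixed fragment length in all distal libraries and a length of its own in each proximal library, and the part of that in the transcript shares was not tested.

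**Figure D3:**
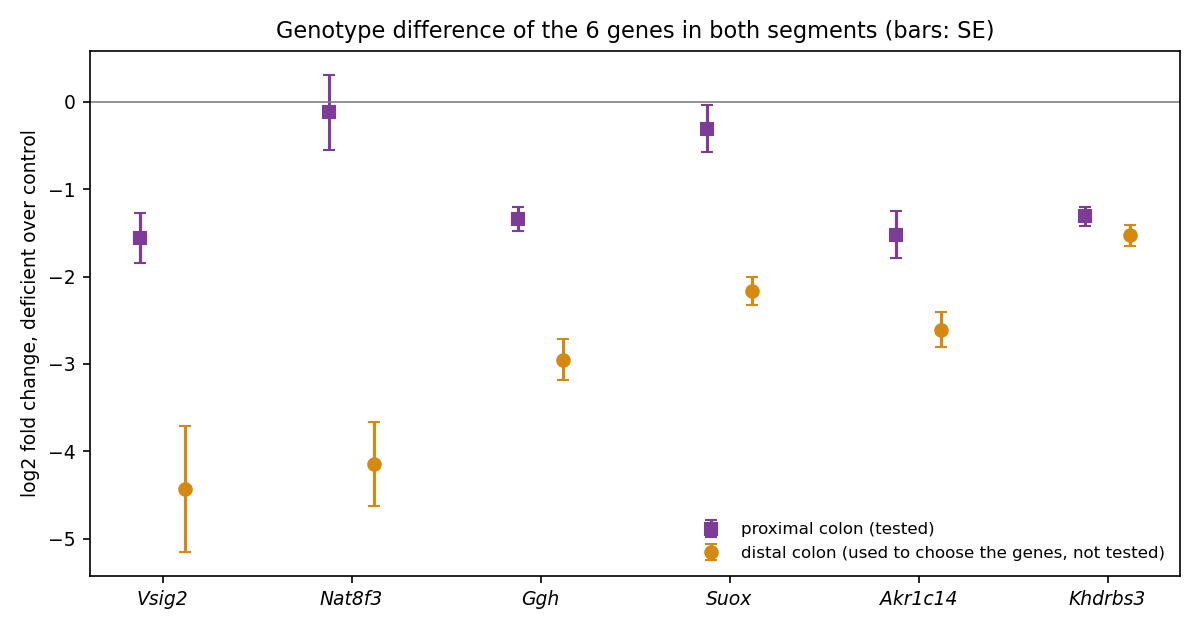
Log2 fold change of deficient over control mice for each gene, in proximal colon (squares) and distal colon (circles), with bars of 1 SE. Proximal values lie from -1.56 to -0.12 and distal values from -4.43 to -1.53, the distal ones being those on which the genes were chosen.

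Of the CTX and JAM family relatives of Vsig2, 1 of 13 tested was called lower and 1 higher in proximal colon, and 1 of 14 lower and 1 higher in distal colon (median log2 fold changes 0.04 and -0.12). Of all genes, 6.17% were lower and 5.52% higher in proximal colon, and 3.37% lower and 2.71% higher in distal colon. Vsig1 had 24.9% protein identity to Vsig2, the highest among the Vsig-named genes. The other genes of the list were not aligned to Vsig2. Vsig1 had 0 estimated counts in all 7 distal deficient libraries and 14 to 120 in the 6 distal control libraries, or 0.554 to 5.19 CPM (adjusted p = 0.00113, edgeR). As with Vsig2, the lowest distal control value was that of replicate 6, but replicate 1 was the highest. Jaml, a junctional adhesion molecule, rose in proximal colon (18.1 ± 1.87 CPM in deficient and 8.42 ± 1.39 CPM in control mice, log2 fold change 1.12, SE 0.11, adjusted p = 6.34e-06) and in distal colon (12.7 ± 3.28 CPM deficient and 7.03 ± 2.15 CPM control, 0.86, SE 0.23, adjusted p = 0.0404, called in 3 of 13 refits without 1 library). The distal call of Jaml was also lost in mice labelled male only and against control mice without Cre only. Vsig8 fell in proximal colon at a low level (0.25 ± 0.133 CPM deficient and 0.578 ± 0.117 CPM control, -1.18, SE 0.33, adjusted p = 0.0259, called in 12 of 14 refits without 1 library). Its call was lost against control mice without Cre only and in mice of 9 to 13 months only.

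Both segments came from the same mice, so distal and proximal levels of each gene could be compared within a mouse. Effective lengths were set differently in the libraries of each segment, as described for Khdrbs3. The part of that in the values between segments cannot be told apart from position. In control mice the distal level of Ggh was 13.6 to 44.9 times the proximal level, and that of Nat8f3 8.29 to 75 times. In deficient mice these ratios were 3.65 to 13.6 for Ggh and 0.58 to 4.63 for Nat8f3. Distal Ggh thus stayed above proximal Ggh in 7 of 7 deficient mice, whereas Nat8f3 was higher in distal colon in 4 of 7. Vsig2 went the other way, with distal over proximal ratios of 0.0041 to 0.0635 in deficient and 0.0179 to 0.239 in control mice.

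Suox and Akr1c14 had a different order in the genotypes. The ratio for Suox was 0.143 to 0.584 in deficient mice, with distal lower in 7 of 7, and 0.973 to 1.76 in control mice, with distal higher in 4 and lower in 2 of 6. For Akr1c14 it was 0.527 to 1.27 in deficient mice, distal being higher in 1 of 7, and 1.18 to 4.07 in control mice, distal being higher in 6 of 6. For Khdrbs3 it was 0.899 to 1.77 in deficient and 1.5 to 1.94 in control mice, but this order depended on the transcripts counted. From Khdrbs3-201 alone it was 0.591 to 1.25 in deficient mice, distal being higher in 5 of 7, and 0.844 to 1.38 in control mice, distal being higher in 4 of 6. In the authors' deposited table, scaled separately for each segment, distal Khdrbs3 was higher than proximal in 2 of 7 deficient and 1 of 6 control mice. Its distal log2 CPM from summed counts exceeded the deposited value by a median of 0.79, against 0.02 to 0.13 for the 4 other genes listed there. With mouse as a block, the log2 difference of distal over proximal colon was -5.59 (SE 0.41) in deficient and -3.07 (SE 0.46) in control mice for Vsig2, 0.23 (SE 0.35) in deficient and 4.28 (SE 0.45) in control mice for Nat8f3, and 2.75 (SE 0.21) in deficient and 4.35 (SE 0.27) in control mice for Ggh. For Suox it was -1.53 (SE 0.24) in deficient and 0.28 (SE 0.13) in control mice, for Akr1c14 -0.23 (SE 0.13) in deficient and 0.88 (SE 0.23) in control mice, and for Khdrbs3 0.5 (SE 0.14) in deficient and 0.77 (SE 0.09) in control mice. The value for Nat8f3 in deficient mice turned to -0.11 without replicate 3. These are given without a test because the distal libraries entered the choice of the genes.

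**Figure D4:**
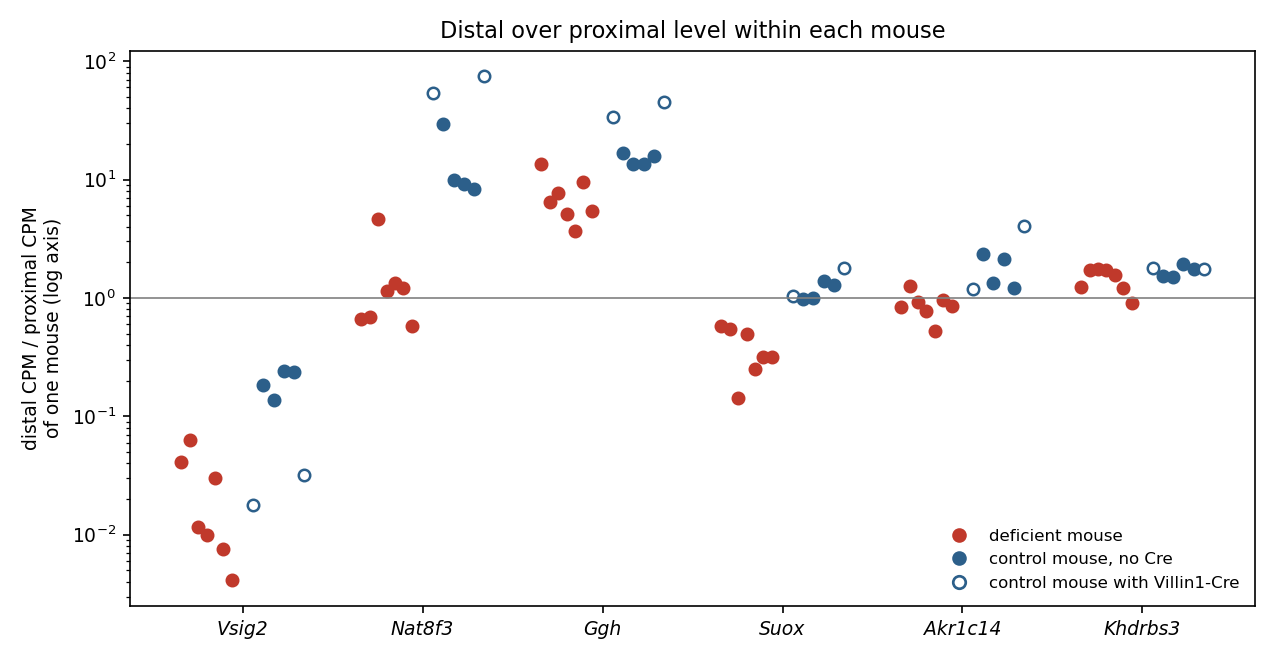
Distal CPM divided by proximal CPM of one mouse, on a log axis, for each gene, with deficient mice in red to the left of control mice in blue (open circles, control mice with Villin1-Cre) and a line at 1. Ratios for Nat8f3 are 0.58 to 4.63 in deficient and 8.29 to 75 in control mice, and those for Suox are 0.143 to 0.584 in deficient and 0.973 to 1.76 in control mice.

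Per transcript length, the order of levels in distal control mice was Ggh (311 ± 84.1 TPM), Akr1c14 (121 ± 40.1 TPM), Khdrbs3 (28.3 ± 4.25 TPM), Suox (10.9 ± 2.24 TPM), Vsig2 (8.77 ± 6.25 TPM) and Nat8f3 (8.73 ± 4.2 TPM), the last 3 not differing beyond their spread (SD, n = 6). In proximal control mice Akr1c14 (82.2 ± 28.9 TPM) and Vsig2 (63.9 ± 26.2 TPM) overlapped at the top. Below them Ggh (18.4 ± 3.09 TPM), Khdrbs3 (15.4 ± 3.1 TPM) and Suox (11.5 ± 3.17 TPM) also overlapped. Nat8f3 was last at 0.507 ± 0.388 TPM (n = 7).

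The genes of most similar pattern were found by Pearson's r of log2 CPM (with 0.5 CPM added) over the 27 libraries among 15574 genes tested in both segments. These libraries share 14 mice, and segment and genotype set much of the likeness, so r is a description only. Ggh had the closest companions, Ceacam2 (r = 0.973), Sytl1 (0.972) and Cyp2d10 (0.971). For Vsig2 they were B4galnt1 (0.951), Car8 (0.948) and Paqr8 (0.937), and for Khdrbs3 Acsm3 (0.944), Far1 (0.936) and P2rx4 (0.934). For Akr1c14 they were Me2 (0.925), Gstm2 (0.908) and Gstm6 (0.901), for Nat8f3 Eaf2 (0.908), Rad1 (0.894) and St8sia1 (0.891), and for Suox Pdk3 (0.883), Ang (0.849) and Qsox1 (0.845). None of the 6 members was among the 3 closest genes of another.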

How the data were processed

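Per the labels' protocols, poly(A) RNA from whole-tissue colon pieces was sequenced. The submitters' processing notes name kallisto 0.46.2, cutadapt 2.5, bcl2fastq 2.20.0.422, edgeR and the GRCm38 (mm10) build. The authors deposited estimated counts (expected counts) per transcript with TPM and effective lengths, and log2 CPM matrices per segment, with a scaling not given in the sources used here. Nat8f3 is named Cml3, a RefSeq synonym, in the distal matrix, and for it in proximal and Vsig2 in distal colon no matrix value was used.

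Transcripts were joined by identifier to GENCODE M21 genes, and estimated counts were summed per gene (35975 genes), rounded and tested with edgeR 4.0.16 (R 4.3.3, quasi-likelihood, filterByExpr, TMM, Benjamini-Hochberg adjusted p under 0.05). Unmatched transcripts held 0.9% to 1.27% of counts, and totals were 18472867 to 56744113 per library. The SE is the log2 fold change divided by the square root of the F statistic. TPM deposited by the authors were used only to order levels per length. Genotypes were compared within each segment without covariates, and segments with mouse as a block, since both pieces came from one mouse. Same-numbered deficient and control mice are different mice by their labels. Their r of deviations was -0.16 to 0.336 in proximal and -0.212 to 0.326 in distal colon. Between the segments of one mouse it was -0.165 to 0.513 (control) and -0.019 to 0.416 (deficient), so r cannot tell such pairs apart. DESeq2 1.42.0 and limma 3.58.1 gave alternatives. The procedure was tested on simulated counts.

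The 6 genes, the 6 lists of relatives and the 12 marker lists were chosen with earlier results of these data known. Named besides the members were Foxa1 and Foxa2, up to 3 genes per list of relatives with the smallest p among those called, the closest protein relatives among genes of like name and the 3 genes of most similar pattern per member. Replicates are separate mice per the labels. Intervals of low counts were not computed, and sequencing depth limits precision for genes under about 50 estimated counts per library.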

Additional observations from a re-analysis of the deposited data

How the results depend on the processing

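Over 26 results, 455 values were recomputed under alternatives, most of which left out 1 library or mouse. Of these, 445 kept their direction and side of the threshold, or their size within the spread between libraries. Counts of genes called had to stay within a set fold. The spread rule is wide for distal Vsig2, where log2 differences of -4.96 to -3.82 all counted as unchanged. The proximal decreases of Vsig2, Ggh, Akr1c14 and Khdrbs3 kept their call under RLE size factors, DESeq2, no filter, a transcript-length offset, limma on the deposited log2 CPM where the gene is listed, the subsets by sex, Cre and age, and without each library in turn. With the replicate number as a replicate block, although the numbers do not pair the mice, these calls also held and proximal Nat8f3 turned to 0.14 (adjusted p = 0.906, edgeR). Leaving out 1 library put proximal Nat8f3 between -0.25 and 0.37, and leaving out 1 mouse put its distal over proximal value in deficient mice between -0.11 and 0.37. With deficient replicates 1, 2, 4 and 6 only, those without low Ddx3y, proximal Suox was -0.94 (SE 0.19, adjusted p = 0.00814, edgeR). This setting was added after seeing the data, and these mice hold the 4 lowest proximal Suox values of the deficient group. The value is therefore not read as a test of a decrease, and the part of sex was not tested. The distal count of called genes with these mice was 569, against 975 in the full set and 1504 with DESeq2. With a transcript-length offset, distal over proximal values moved to 1.2 for Khdrbs3 in control mice, and in deficient mice to -5 for Vsig2 and 0.79 for Khdrbs3. The cause of these changes was not tested. Among the members the fewest estimated counts were those of proximal Nat8f3 (9 to 69 per library) and distal Vsig2 (1 to 21 per deficient library). The part of depth in their spread was not tested.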
